A study of Equus caballus with 6 samples.

Results

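The genes described here encode the machinery that removes introns from pre-mRNA and the RNA-binding proteins that steer it: SR proteins, heterogeneous nuclear ribonucleoproteins (hnRNPs), proteins of the small nuclear ribonucleoproteins (snRNPs), the LSm, PRPF and RBM proteins, and the regulators CELF, MBNL, QKI, RBFOX2 and NOVA1. They were chosen by gene symbol alone, and 114 of the 12270 rows of the deposited table matched, each with a symbol of its own. The epithelial regulators ESRP1 and ESRP2 were left out of the choice. Expression was measured in day 8 horse (Equus caballus) blastocysts produced in vivo by superovulated mares, in 3 libraries of inner cell mass (ICM 15, 22 and 25) and 3 of trophectoderm (TE 16, 23 and 24). The ICM forms the embryo proper and the yolk sac endoderm, and the TE is the outer epithelium that forms the placenta. All blastocysts were treated with Pronase. TE was taken off mechanically and ICM was cleaned by immunosurgery, so tissue and isolation method cannot be told apart. The labels name no mares and pair no ICM with a TE, so a p-value here reflects only how these 6 libraries spread.

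The spliceosome is built anew on each intron from the U1, U2, U4, U5 and U6 snRNPs. Sm proteins form a ring on most of these RNAs and an LSm ring sits on U6. SF3 and U2AF proteins recognise the branch point and the end of the intron, and PRPF proteins build and rearrange the complex. SR proteins mostly favour the use of exons they bind, hnRNPs often repress it, and tissue-biased regulators such as CELF, MBNL and NOVA change which exons a cell type includes. In the blastocyst, alternative splicing is one of the layers that can differ between pluripotent cells and epithelium, but a gene's total RNA level, as measured here, does not show which exons were used.

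Splicing genes were abundant in both tissues, and none of the 106 tested here was called different between them. The authors' deposited table passed 5 of the 114, most of them below the filter used here, against 16.6% of its rows. Of the 114, 106 passed the filter of at least 1 RPKM (reads per kilobase of gene, divided by a size factor of each library) in at least 3 libraries. Over the 6 libraries, 74 of the 114 averaged at least 10 RPKM and 12 at least 100 RPKM. Of all 12270 rows, 3328 and 320 did. Of the 106, 0 passed an adjusted p of 0.05 (limma on log2(RPKM + 1), Benjamini-Hochberg adjustment over all 9436 genes tested), where 1.87% of all genes tested passed, 0.933% toward ICM and 0.933% toward TE. Voom, a weighted limma fit on the reads, called 0 of the 106 too, where it called 195 of all 9436 genes tested. At an unadjusted limma p of 0.05, 4 of 106 passed (SRSF12, PTBP3, PRPF4 and RBM47), against 16.9% of all genes tested. The lowest adjusted p among them was 0.18. The ICM and TE values did not overlap for 10 of 106, 5 with ICM above and 5 with TE above, where 24.6% of all genes did not overlap, 6.81% with ICM above and 17.8% with TE above. The 95% interval of the log2 difference lay within -1 and 1, which is a 2-fold difference on this scale, for 65 of 106 (61.3%), against 48.4% of all genes tested. For the other splicing genes the interval reached past 2-fold, so a missed threshold does not show equal levels.

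The direction of the small differences depended on scaling and on 1 library. The median log2 difference of the 106 was -0.11, ICM minus TE, beside -0.15 over all genes tested. Of the 106, 36 had a higher log2 mean in ICM and 70 in TE, where 3332 and 6104 of all 9436 genes tested did. After median of ratios rescaling the medians were 0.06 for the splicing genes and 0.01 for all genes, and 61 splicing genes lay higher in ICM and 45 in TE. Without ICM 25 the medians were 0.17 and -0.01, with 72 splicing genes higher in ICM and 34 in TE, and without TE 24 they were -0.02 and -0.11, with 50 and 56. Leaving out ICM 22 gave -0.34 and -0.26, with 18 and 88. The calls over all genes, 88 in each direction, were 128 toward ICM and 64 toward TE after the rescaling. In bulk tissue, fewer cells of a type and less RNA per cell cannot be told apart.

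**Figure D1:**
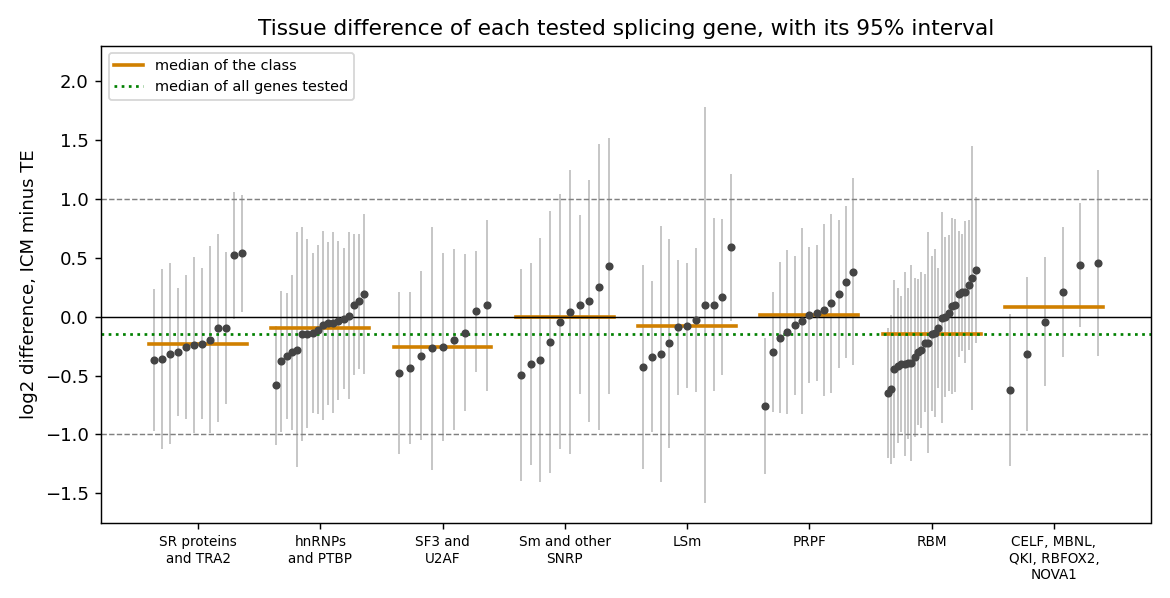
Log2 difference (ICM minus TE, log2(RPKM + 1)) of each of the 106 tested splicing genes, grouped by class and ordered within it, with its 95% interval (grey) and the class median (orange). Solid and dashed lines mark 0 and a 2-fold difference, and the dotted line marks the median of all genes tested, -0.15; the points lie between -0.76 and 0.59.

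Summed trophectoderm markers separated the tissues, while the epiblast and hypoblast sums of ICM 25 lay within the TE range. POU5F1 held most of the epiblast sum, and NANOG, KLF4, GDF3 and SOX2 each lay higher in every ICM library than in any TE library. Summed over the list, trophectoderm markers (6 genes, CDX2 at about 1 RPKM or less) stood at 13.6 to 33.7 RPKM in ICM, against 108 to 139.6 in TE, and epiblast markers (5 genes, SOX2 at 0 in all TE libraries) at 47.7 to 128 RPKM in ICM, against 35.6 to 55.9 in TE. Hypoblast markers (4 genes found) stood at 16.8 to 63.9 RPKM in ICM, against 16.2 to 23.3 in TE. ICM 25 held the lowest ICM sum of both, and its trophectoderm sum, 25.2 RPKM, lay between those of ICM 15 and 22. Single hypoblast markers of ICM 25 went both ways. PDGFRA, at 6.14 RPKM, lay above every TE library (highest 2.58), and COL4A1, at 2.19, just above (highest 2.16). GATA4, at 2.33 RPKM, and GATA6, at 6.19, lay below every TE library. Leukocyte markers (5 of 7 genes in 6 rows, each below the filter) summed to 2.35 to 7.18 RPKM in ICM, against 1.65 to 2.86 in TE, with the highest value in ICM 25, where the next highest of the 6 libraries was 2.86. Of blood and stroma markers, ALAS2 (1 of 5 found) stood at 0.742 to 2.68 RPKM in ICM, against 0.54 to 1.4 in TE and VIM with COL1A2 (2 of 8) at 12.5 to 18.4 RPKM in ICM, against 1.82 to 8.48 in TE. Their part in the results was not tested. The table's genes held 6526212 to 10686659 reads in a library, of which the splicing genes took 2.13%, 2.33% and 1.7% in ICM 15, 22 and 25 and 1.95%, 1.88% and 2.03% in TE 16, 23 and 24. The share was highest in ICM 22, which also had the most reads, and lowest in ICM 25. A splicing gene had a median of 345 to 867 reads per library.

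ICM 25 stood below the other libraries for most splicing genes. It was the lowest of the 6 libraries for 82 of 106 (77.4%), against 50.9% of all genes tested, and the highest for 4 of 106, against 9.95%. The RPKM of all genes did not sum alike: 236076, 278212 and 208090 in ICM 15, 22 and 25, against 254018, 244989 and 293706 in TE 16, 23 and 24, with ICM 25 the lowest. Of these sums the splicing genes held 1.87%, 1.98% and 1.37% in ICM 15, 22 and 25, against 1.68%, 1.61% and 1.73% in TE 16, 23 and 24, and ICM 25 was again the lowest. The part of this scale in single values of ICM 25 was not tested. The 4 genes with their highest value in ICM 25 were RBM4B, SRSF12, HNRNPLL and MBNL1, named after their values were seen. Against the mean of ICM 15 and 22, the median shift of ICM 25 was -0.73 on the log2(RPKM + 1) scale for splicing genes and -0.41 for all genes tested. The median SD within ICM was 0.49 log2 units for splicing genes and 0.21 within TE, beside 0.44 and 0.19 for all genes tested. Without ICM 25, 4 of 106 splicing genes were called at an adjusted limma p of 0.05, 3 toward ICM and 1 toward TE, where 11.5% of all genes were, 5.89% toward ICM and 5.62% toward TE. The 4 were SRSF5, SNRPG, LSM14B and PTBP3, described with their classes. Voom on the reads without ICM 25, a combination chosen after the data were seen, called 7 of 106, 4 toward ICM and 3 toward TE, where 14.1% of all genes were called, 7.43% and 6.72% by direction. QKI, CELF2 and MBNL1 were the added ones.

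**Figure D2:**
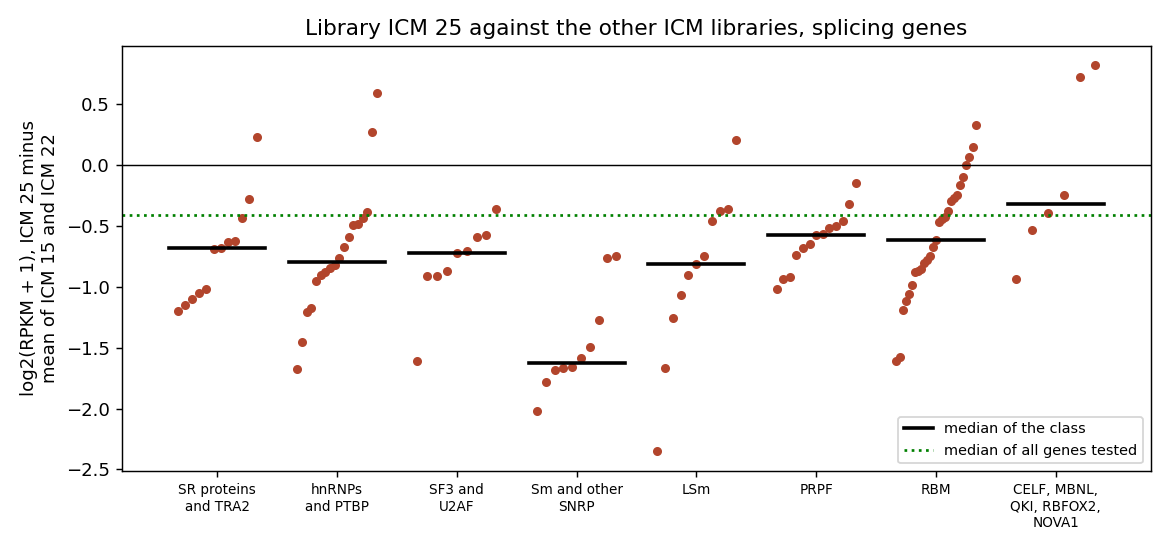
Level of ICM 25 minus the mean of ICM 15 and ICM 22, in log2(RPKM + 1), for each of the 106 tested splicing genes by class. Black lines are class medians, and the dotted line is the median of all genes tested, -0.41. Sm and other SNRP proteins have a median of -1.62 and the CELF, MBNL, QKI and RBFOX2 genes one of -0.32.

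SR proteins, which bind exons and recruit the spliceosome through a domain rich in arginine and serine, numbered 12 with the related TRA2A and TRA2B, and all passed the filter. Their summed level was 669.5, 787 and 420.1 RPKM in ICM 15, 22 and 25, against 678, 614 and 797 RPKM in TE 16, 23 and 24. ICM 25 lay lowest and the other ICM libraries lay within the range of TE. SRSF3 and SRSF7, shuttling SR proteins that also take part in mRNA export, were the most abundant. SRSF3 stood at 165, 234 and 96.6 RPKM in ICM 15, 22 and 25, against 198, 161 and 226 RPKM in TE 16, 23 and 24. SRSF7 stood at 120.3, 151 and 83.5 RPKM in ICM 15, 22 and 25, against 128, 118 and 162 RPKM in TE 16, 23 and 24. The values of both genes overlapped between the tissues (SRSF3 log2 difference -0.31 with SE 0.34, limma adjusted p = 0.7, 95% interval -1.08 to 0.45; SRSF7 log2 difference -0.23 with SE 0.28, limma adjusted p = 0.74).

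The SR proteins with the smallest p were SRSF12, SRSF5 and SRSF10. SRSF12, a smaller SR protein known in human cells as a splicing repressor, stood at 20.2, 19 and 23.1 RPKM in ICM 15, 22 and 25, against 13.6, 14.3 and 13.9 RPKM in TE 16, 23 and 24. All ICM values lay above all TE values, and ICM 25 was the highest of the 6. The averages were 20.8 ± 2.13 RPKM in ICM, against 13.9 ± 0.379 RPKM in TE (SD, n = 3 each), and the difference missed the threshold (log2 difference 0.54 with SE 0.22, limma adjusted p = 0.26). SRSF5, an SR protein that supports exon inclusion, stood at 40.9, 46.2 and 31.8 RPKM in ICM 15, 22 and 25, against 24.7, 27.7 and 28.8 RPKM in TE 16, 23 and 24. ICM and TE did not overlap, with ICM 25 nearest to TE. The difference was not called with all libraries (log2 difference 0.52 with SE 0.24, limma adjusted p = 0.32) and was called without ICM 25 (log2 difference 0.67 with SE 0.17, limma adjusted p = 0.043). SRSF10, which represses splicing when dephosphorylated in heat-shocked cells, stood at 24.6, 24.2 and 15.4 RPKM in ICM 15, 22 and 25, against 31.6, 23.4 and 27.7 RPKM in TE 16, 23 and 24. Its values overlapped (log2 difference -0.37 with SE 0.27, limma adjusted p = 0.54). The differences of the other SR genes lay between -0.36 for TRA2B and -0.10 for SRSF9 and SRSF11, each uncalled. By the table's coordinates, given without a build, SRSF12 lies on chromosome 10 (41555159 to 41562576) and SRSF5 on chromosome 24 (15820202 to 15823560).

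The hnRNPs coat nascent transcripts, and with PTBP1 and PTBP3, the polypyrimidine tract binding proteins, they numbered 18. They were the most abundant class, with 8 of 18 averaging at least 100 RPKM, and their summed level was 2159, 2659 and 1391 RPKM in ICM 15, 22 and 25, against 2022, 1906 and 2455 RPKM in TE 16, 23 and 24. ICM 25 again lay below every other library. HNRNPA2B1, which binds splice sites and RNAs sorted for transport, stood at 271, 378 and 228 RPKM in ICM 15, 22 and 25, against 289.6, 262 and 319 RPKM in TE 16, 23 and 24, the highest mean of the 114. ICM 22 was the highest and ICM 25 the lowest of the 6 (log2 difference -0.02 with SE 0.26, limma adjusted p = 0.98, 95% interval -0.62 to 0.58). HNRNPD, which binds AU-rich elements and affects mRNA stability, stood at 280.4, 341 and 113 RPKM in ICM 15, 22 and 25, against 230.0, 221 and 289 RPKM in TE 16, 23 and 24. ICM 22 was the highest, ICM 15 lay within the TE range and ICM 25 was the lowest (log2 difference -0.15 with SE 0.40, limma adjusted p = 0.9). Its interval, -1.05 to 0.76, reached past a 2-fold lower level in ICM.

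PTBP3 had the smallest p of its class, with higher values in TE. It stood at 65.2, 65.3 and 78.8 RPKM in ICM 15, 22 and 25, against 102, 98.5 and 114 RPKM in TE 16, 23 and 24, and the groups did not overlap, ICM 25 being the ICM library nearest to TE. The averages were 69.8 ± 7.85 RPKM in ICM, against 105 ± 7.84 RPKM in TE (SD, n = 3 each). With all libraries it missed the threshold (log2 difference -0.58 with SE 0.22, limma adjusted p = 0.23, 95% interval -1.09 to -0.08), and without ICM 25 it was called (log2 difference -0.67 with SE 0.17, limma adjusted p = 0.039). Its relative PTBP1, a repressor of many exons, stood at 116, 169 and 72.1 RPKM in ICM 15, 22 and 25, against 103, 102 and 149 RPKM in TE 16, 23 and 24. PTBP1 values overlapped (log2 difference -0.05 with SE 0.34, limma adjusted p = 0.96). Whether PTBP1 and PTBP3 differ in this was not tested. PTBP3 lies on chromosome 25 (16970503 to 17029735) and PTBP1 on chromosome 7 (37505 to 44917).

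HNRNPH1 and HNRNPH2, close paralogs that bind runs of G, followed. HNRNPH1 stood at 116, 152 and 94.2 RPKM in ICM 15, 22 and 25, against 137, 145 and 185 RPKM in TE 16, 23 and 24, with overlapping groups (log2 difference -0.38 with SE 0.26, limma adjusted p = 0.52). HNRNPH2, from the X chromosome, stood at 37.8, 44.8 and 31.4 RPKM in ICM 15, 22 and 25, against 48, 44 and 51.2 RPKM in TE 16, 23 and 24, where ICM 22 lay inside the TE range and ICM 15 and 25 below it (log2 difference -0.33 with SE 0.24, limma adjusted p = 0.52). How reads common to such paralogs were counted is not given in the sources used here, so single values of HNRNPH1 and HNRNPH2, of RBM4 and RBM4B, and of genes with many processed copies such as HNRNPA1 and SNRPG are uncertain. The remaining hnRNPs had differences between -0.30 for HNRNPUL1 and 0.19 for HNRNPH3, each uncalled. HNRNPLL, a regulator known from lymphocytes, was the least abundant at 4.8 ± 1.51 RPKM in ICM, against 4.3 ± 0.46 RPKM in TE (SD, n = 3 each).

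The SF3 and U2AF genes mark the intron's branch point and 3′ end, and 9 were found, all of them tested. Their sum was 272, 328 and 174 RPKM in ICM 15, 22 and 25, against 265, 265 and 325 RPKM in TE 16, 23 and 24, with ICM 25 lowest. SF3B1, the branch point subunit, stood at 88.5, 94.3 and 71 RPKM in ICM 15, 22 and 25, against 79, 80.4 and 84.6 RPKM in TE 16, 23 and 24. It was among the most even of the genes, with a range of 0.40 log2 units over the 6 libraries where the 106 spanned 0.30 to 2.91, and its interval of -0.47 to 0.56 lay well within 2-fold (log2 difference 0.05 with SE 0.23, limma adjusted p = 0.95). SF3B4 stood at 46.8, 44.2 and 23.7 RPKM in ICM 15, 22 and 25, against 45.9, 48.3 and 61.2 RPKM in TE 16, 23 and 24, with ICM 25 below the rest and overlap elsewhere (log2 difference -0.48 with SE 0.30, limma adjusted p = 0.48). U2AF2, which binds the polypyrimidine tract, stood at 13.7, 12.6 and 8.36 RPKM in ICM 15, 22 and 25, against 20.8, 13.9 and 13.2 RPKM in TE 16, 23 and 24. TE 16 was the highest and ICM 25 the lowest (log2 difference -0.43 with SE 0.28, limma adjusted p = 0.49). SF3A1, a subunit of the SF3a complex, was at 17.8 ± 7.82 RPKM in ICM, against 21.6 ± 3.74 RPKM in TE (SD, n = 3 each, limma's adjusted p = 0.65). Among the 9, 7 had lower log2 means in ICM, where 6104 of all 9436 genes tested did. The class median was -0.26 with all libraries and 0.11 without ICM 25.

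The Sm and other SNRP proteins, 11 genes, had a median SD within ICM of 1.01 log2 units, above that of the other 7 classes. Their summed level was 294, 445 and 119 RPKM in ICM 15, 22 and 25, against 238, 217 and 364 RPKM in TE 16, 23 and 24. ICM 22 and TE 24, the libraries with the most reads of their tissue, were the highest, and ICM 25 was the lowest. The part of depth in this was not tested. SNRPD1, a core Sm protein, stood at 60.7, 95.7 and 23.3 RPKM in ICM 15, 22 and 25, against 45.8, 42.5 and 77 RPKM in TE 16, 23 and 24 (log2 difference -0.04 with SE 0.48, limma adjusted p = 0.98, 95% interval -1.13 to 1.04). SNRPF, another ring subunit, stood at 62.3, 77.6 and 16.4 RPKM in ICM 15, 22 and 25, against 35.8, 33.8 and 61.3 RPKM in TE 16, 23 and 24 (log2 difference 0.04 with SE 0.53, limma adjusted p = 0.98). In both, ICM 25 was the lowest library and ICM 22 the highest. The interval of 1 of the 10 tested genes lay within 2-fold, and the median half-width of the intervals was 1.06 log2 units, against 0.68 over all 106.

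SNRPG, the Sm ring's G subunit, stood at 19.6, 22.6 and 5.41 RPKM in ICM 15, 22 and 25, against 10.4, 6.98 and 12.9 RPKM in TE 16, 23 and 24. ICM 15 and 22 lay above every TE library and ICM 25 below every one. It was uncalled with all libraries (log2 difference 0.43 with SE 0.48, limma adjusted p = 0.71) and called higher in ICM without ICM 25 (log2 difference 1.03 with SE 0.25, limma adjusted p = 0.038), a value in which ICM is 2 libraries. SNRPB, which makes the SmB proteins, stood at 13.2, 34 and 12.2 RPKM in ICM 15, 22 and 25, against 25, 19.4 and 33.6 RPKM in TE 16, 23 and 24, with ICM 15 and 25 below TE and ICM 22 the highest of all (log2 difference -0.50 with SE 0.40, limma adjusted p = 0.58). SNRPA1, a U2 protein, was at 24.1 ± 12.9 RPKM in ICM, against 29.3 ± 2.88 RPKM in TE (SD, n = 3 each, limma's adjusted p = 0.65). SNRPE had few reads (2, 7 and 1 reads in ICM 15, 22 and 25, against 2, 5 and 2 in TE 16, 23 and 24), too few to show a difference, and stayed below the filter. SNRPD1 had 258 to 1308 reads in the same libraries, and why SNRPE had so few was not tested. SNRPG lies on chromosome 15 (32262755 to 32271269).

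**Figure D3:**
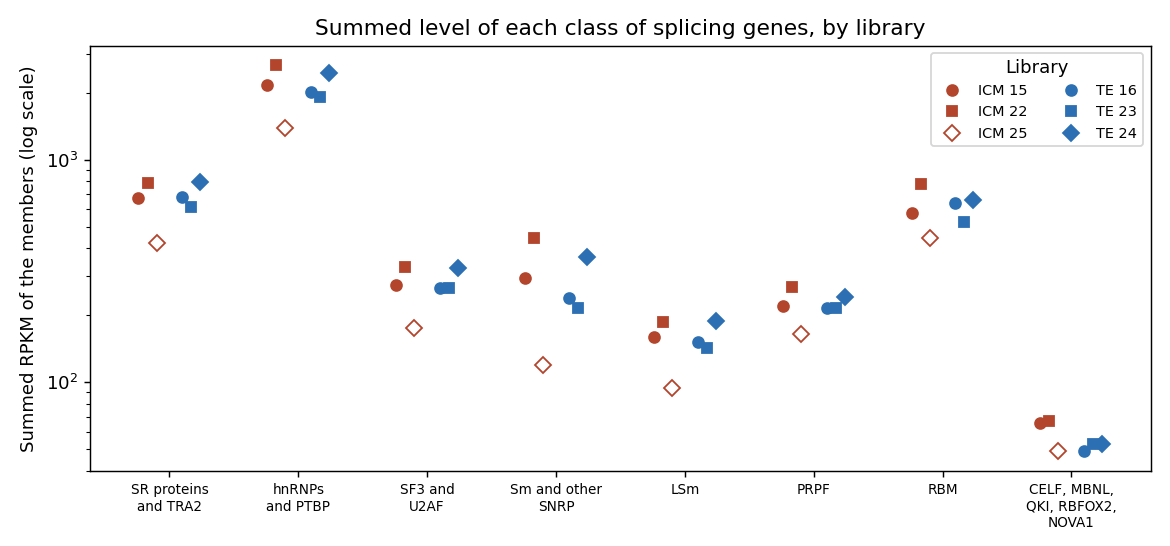
Summed RPKM (log axis) of all members of each class in every library, ICM in red and TE in blue, with ICM 25 as an open diamond. ICM 25 is the lowest library in each of the 8 classes, and ICM 15 and 22 lie within or above the TE values.

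LSm proteins form rings related to those of the Sm proteins, LSM2 to LSM8 on U6 and LSM1 with LSM2 to LSM7 in mRNA decay, and 12 LSM genes were found, 11 of them tested. LSM12 and LSM14A were the most abundant. LSM12, a longer protein with an LSm domain, stood at 62.4, 66.6 and 36.3 RPKM in ICM 15, 22 and 25, against 62.8, 65.3 and 75.3 RPKM in TE 16, 23 and 24 (log2 difference -0.34 with SE 0.28, limma adjusted p = 0.6). LSM14A, a translational repressor of P-bodies, stood at 33.7, 30.4 and 23.1 RPKM in ICM 15, 22 and 25, against 31.1, 29.6 and 30.2 RPKM in TE 16, 23 and 24, even in TE and lower in ICM 25 (log2 difference -0.08 with SE 0.24, limma adjusted p = 0.91, 95% interval -0.61 to 0.46). LSM14B, its relative and known in mouse for the storage of oocyte mRNA, stood at 4.73, 5.23 and 2.56 RPKM in ICM 15, 22 and 25, against 2.29, 2.23 and 2.51 RPKM in TE 16, 23 and 24. The groups did not overlap, though ICM 25 was within 0.1 RPKM of TE 24. It was uncalled with all libraries (log2 difference 0.59 with SE 0.28, limma adjusted p = 0.33) and called without ICM 25 (log2 difference 0.84 with SE 0.20, limma adjusted p = 0.036). LSM1, of the decay ring, stood at 7.7 ± 3.69 RPKM in ICM, against 10.1 ± 3.0 RPKM in TE (SD, n = 3 each, limma's adjusted p = 0.63). LSM7, a ring subunit with 2 to 47 reads per library, spanned the widest range of the 106, 2.91 log2 units, with 4.44, 10.7 and 0.564 RPKM in ICM 15, 22 and 25, against 3.12, 1.06 and 8.59 RPKM in TE 16, 23 and 24. LSM10, a protein of the U7 snRNP that processes histone mRNA, was below the filter with 0, 8 and 9 reads in ICM 15, 22 and 25, against 15, 9 and 10 in TE 16, 23 and 24. No read in ICM 15 allows up to 0.297 RPKM (3 reads). LSM14B lies on chromosome 22 (48040578 to 48048517).

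PRPF genes, 13 and all tested, held the splicing gene with the smallest p. PRPF4, a protein of the U4/U6 snRNP, stood at 5.6, 6.01 and 3.81 RPKM in ICM 15, 22 and 25, against 10.01, 7.82 and 10.1 RPKM in TE 16, 23 and 24. Every TE value lay above every ICM value, and the averages were 5.14 ± 1.17 RPKM in ICM, against 9.32 ± 1.3 RPKM in TE (SD, n = 3 each). It missed the threshold (log2 difference -0.76 with SE 0.26, limma adjusted p = 0.18), also without ICM 25 (log2 difference -0.59 with SE 0.20, limma adjusted p = 0.093), and its 95% interval was -1.34 to -0.18. In the authors' deposited table PRPF4 passed as lower in ICM (log2 fold -0.86, DESeq adjusted p = 0.04). PRPF8, the scaffold of the catalytic centre, stood at 57, 59.8 and 46.7 RPKM in ICM 15, 22 and 25, against 63.6, 71.6 and 66.1 RPKM in TE 16, 23 and 24, again with no overlap and TE higher (log2 difference -0.30 with SE 0.22, limma adjusted p = 0.55). PRPF40B, which acts where the intron starts, stood at 2.15, 3.76 and 0.909 RPKM in ICM 15, 22 and 25, against 0.931, 1.32 and 1.88 RPKM in TE 16, 23 and 24, with ICM 25 at the level of the lowest TE library (log2 difference 0.38 with SE 0.35, limma adjusted p = 0.64). Of the others, 9 lay between -0.18 for PRPF6 and 0.29 for PRPF38B. PRPF4 lies on chromosome 25 (18206728 to 18250327).

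RBM genes share an RNA recognition motif and act at many steps, and 31 were found, of which 27 were tested. RBM3, a protein induced by cold, and RBM39, a cofactor related to U2AF2, were the most abundant. RBM3, on the X chromosome, stood at 149.9, 214 and 129.7 RPKM in ICM 15, 22 and 25, against 216, 123 and 158 RPKM in TE 16, 23 and 24. The tissues overlapped throughout, and the 95% interval of the log2 difference was -0.68 to 0.68. RBM39 stood at 101, 119 and 102 RPKM in ICM 15, 22 and 25, against 95.9, 88.2 and 94.3 RPKM in TE 16, 23 and 24. All ICM values lay above TE by a small margin, and the difference was not called (log2 difference 0.21 with SE 0.22, limma adjusted p = 0.69). RBM39 was also among the most even genes, with a range of 0.43 log2 units, and RBM12B, chosen after its values were seen, was the most even with 0.30.

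RBM47 had the smallest p of the RBM genes, with higher values in TE. This RNA-binding protein, known in mouse and human epithelia as a regulator of splicing and mRNA stability, stood at 12.7, 16.2 and 10.3 RPKM in ICM 15, 22 and 25, against 19.4, 21.2 and 21.6 RPKM in TE 16, 23 and 24. The groups did not overlap. The averages were 13 ± 3.0 RPKM in ICM, against 20.7 ± 1.17 RPKM in TE (SD, n = 3 each), and it was not called (log2 difference -0.65 with SE 0.24, limma adjusted p = 0.22, 95% interval -1.20 to -0.09; log2 difference -0.50 with SE 0.18, limma adjusted p = 0.12 without ICM 25). RBM22, a protein of the catalytic core, stood at 4.91, 9.56 and 6.07 RPKM in ICM 15, 22 and 25, against 9.76, 10.2 and 12.2 RPKM in TE 16, 23 and 24, where ICM 22 came close to TE 16 (log2 difference -0.62 with SE 0.28, limma adjusted p = 0.31). RBM23, a relative of RBM39, stood at 3.97, 5.69 and 3.7 RPKM in ICM 15, 22 and 25, against 5.04, 6.75 and 6.69 RPKM in TE 16, 23 and 24, with overlap at ICM 22 (log2 difference -0.40 with SE 0.25, limma adjusted p = 0.48). The other tested RBM genes lay between -0.45 for RBM6 and 0.40 for RBM18. RBM47 lies on chromosome 3 (87062997 to 87071530).

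The 4 RBM genes below the filter had few reads in most libraries. RBM20, which controls titin splicing in heart, had 0, 16 and 15 reads in ICM 15, 22 and 25, against 109, 68 and 27 in TE 16, 23 and 24. The TE libraries all lay above the ICM libraries, with TE 24 the lowest of them, and no read in ICM 15 allows up to 0.0333 RPKM. With no filter the difference was not called (log2 difference -0.67 with SE 0.23, limma adjusted p = 0.19, over all 12270 rows), while the authors' deposited table passed it (log2 fold -2.92, DESeq adjusted p = 6.7e-04). RBM44, known from mouse germ cells, had 22, 85 and 352 reads in ICM 15, 22 and 25, against 54, 71 and 48 in TE 16, 23 and 24. ICM 25 alone held most of the reads, and ICM 15 was the lowest of the 6. The authors' deposited table passed RBM44 as higher in ICM (log2 fold 1.26, DESeq adjusted p = 0.0043), and the fit with no filter did not (log2 difference 0.41 with SE 0.47, limma adjusted p = 0.68). RBM11 had 12, 51 and 14 reads in ICM 15, 22 and 25, against 12, 7 and 13 in TE 16, 23 and 24 (log2 difference 0.42 with SE 0.29, limma adjusted p = 0.48), and RBM38, a target of p53, had 5, 15 and 6 reads in ICM 15, 22 and 25, against 8, 1 and 4 in TE 16, 23 and 24 (log2 difference 0.29 with SE 0.23, limma adjusted p = 0.54). In RBM11 and RBM38, ICM 22 was the highest library and the others overlapped.

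Of the 8 tissue-biased regulators 6 were tested, and QKI and CELF1 were the most abundant. Their summed level was 65.8, 66.6 and 48.8 RPKM in ICM 15, 22 and 25, against 49, 52.6 and 52.6 RPKM in TE 16, 23 and 24, so ICM 15 and 22 lay above TE and ICM 25 just below it. QKI, a STAR protein of endoderm, muscle and glia, stood at 24, 26.5 and 19 RPKM in ICM 15, 22 and 25, against 15.8, 16.6 and 17.8 RPKM in TE 16, 23 and 24. The groups did not overlap and ICM was higher (log2 difference 0.44 with SE 0.23, limma adjusted p = 0.39, 95% interval -0.09 to 0.97; log2 difference 0.57 with SE 0.17, limma adjusted p = 0.067 without ICM 25). With voom on the reads and without ICM 25 QKI was called (log2 difference 0.62, limma adjusted p = 0.035). CELF1 stood at 25, 25.1 and 17.1 RPKM in ICM 15, 22 and 25, against 22, 22.7 and 23.4 RPKM in TE 16, 23 and 24, even but for ICM 25 (log2 difference -0.04 with SE 0.24, limma adjusted p = 0.96). RBFOX2, which binds GCAUG motifs near regulated exons, stood at 5.37, 7.89 and 5.35 RPKM in ICM 15, 22 and 25, against 4.96, 5.43 and 5.09 RPKM in TE 16, 23 and 24 (log2 difference 0.21 with SE 0.24, limma adjusted p = 0.73). ICM 22 was its highest library, and the others lay close together. QKI lies on chromosome 31 (4808497 to 4916573).

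CELF2 and MBNL1 showed ICM 25 on the side of TE. CELF2, whose family counters MBNL proteins at some exons, stood at 0.408, 0.752 and 1.59 RPKM in ICM 15, 22 and 25, against 1.5, 2.28 and 1.87 RPKM in TE 16, 23 and 24. ICM 15 and 22 lay below all TE libraries and ICM 25 among them (log2 difference -0.63 with SE 0.28, limma adjusted p = 0.31; log2 difference -0.87 with SE 0.24, limma adjusted p = 0.056 without ICM 25). MBNL1, which drives mature splicing patterns in muscle, stood at 1.04, 0.719 and 2.31 RPKM in ICM 15, 22 and 25, against 1.88, 1.63 and 1.98 RPKM in TE 16, 23 and 24, with ICM 15 and 22 below TE and ICM 25 above it (log2 difference -0.32 with SE 0.29, limma adjusted p = 0.63; log2 difference -0.59 with SE 0.22, limma adjusted p = 0.13 without ICM 25). Voom without ICM 25 called both as lower in ICM (CELF2 log2 difference -1.64, limma adjusted p = 0.034; MBNL1 log2 difference -1.10, limma adjusted p = 0.039). ICM 25 was also the library with the highest leukocyte marker sum, 7.18 RPKM, with CD3E at 0, and the part of this in CELF2 and MBNL1 was not tested. MBNL3, from the X chromosome and known to hold back muscle differentiation in mouse, stood at 7.04, 4.14 and 2.36 RPKM in ICM 15, 22 and 25, against 2.39, 3.83 and 2.3 RPKM in TE 16, 23 and 24, highest in ICM 15 (log2 difference 0.45 with SE 0.35, limma adjusted p = 0.56).

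CELF3 and NOVA1, regulators known chiefly from neurons, were below the filter. CELF3 had 53, 40 and 52 reads in ICM 15, 22 and 25, against 5, 3 and 2 in TE 16, 23 and 24. Its levels were 1.15, 0.715 and 1.15 RPKM in ICM 15, 22 and 25, against 0.102, 0.0834 and 0.042 RPKM in TE 16, 23 and 24, so every ICM library, ICM 25 included, lay above every TE library. On the log2(RPKM + 1) scale, which understates such low genes, it was not called with no filter (log2 difference 0.89 with SE 0.19, limma adjusted p = 0.065), where 0.929% of all rows were called. The authors' deposited table passed it as higher in ICM (log2 fold 3.73, DESeq adjusted p = 1.1e-07). NOVA1 had 146, 82 and 4 reads in ICM 15, 22 and 25, against 32, 1 and 11 in TE 16, 23 and 24. ICM 15 and 22 lay above TE and ICM 25 inside its range (log2 difference 0.57 with SE 0.32, limma adjusted p = 0.38 with no filter). The authors' deposited table passed NOVA1 too (log2 fold 2.37, DESeq adjusted p = 1.7e-04). CELF3 lies on chromosome 5 (45591653 to 45605201) and NOVA1 on chromosome 1 (164657719 to 164803592).

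**Figure D4:**
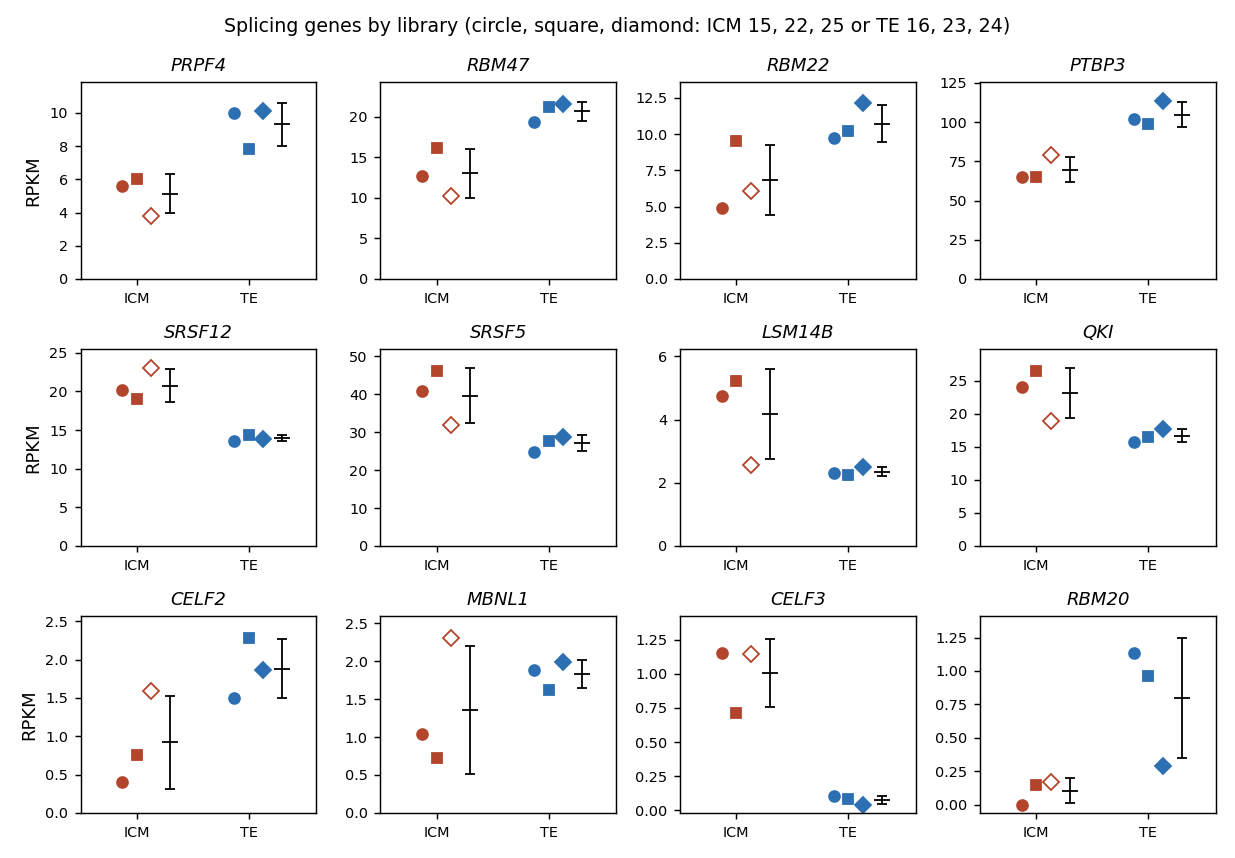
RPKM of 12 splicing genes in each library, ICM in red left of TE in blue, with the mean ± SD of 3 libraries beside the points; ICM 25 is an open diamond and each panel has its own linear axis. TE lies above ICM in PRPF4, RBM47, RBM22, PTBP3 and RBM20, ICM above TE in SRSF12, SRSF5, LSM14B, QKI and CELF3, and ICM 25 lies apart from ICM 15 and 22 in CELF2 and MBNL1.

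Taking all calls of the authors' deposited table at an adjusted p of 0.05, 5 of the 114 passed, 3 higher in ICM (CELF3, NOVA1 and RBM44) and 2 lower (RBM20 and PRPF4), where 16.6% of its rows with an adjusted p passed, 10.7% higher and 5.93% lower in ICM. Of the 5, 4 were below the filter of 1 RPKM in 3 libraries. No hnRNP, SR, SF3, U2AF, SNRP or LSM gene was among them.

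Other genes of splicing, from lists that hold none of the 114, were read beside them. Of 172 listed genes 156 were in the table and 155 were tested. By limma 0 were called, where 1.87% of all genes tested were, and by voom on the reads 0, where 195 of 9436 were. At an unadjusted limma p under 0.05, 7 passed, against 16.9% of all genes tested, and the median log2 difference was -0.14. Other spliceosome proteins (67 tested) had a median of -0.21, kinases and phosphatases of SR proteins (10) 0.19, genes of the exon junction complex and mRNA export (24) -0.13, snRNP assembly genes (15) -0.32 and further RNA-binding regulators (39) -0.11. In snRNP assembly 14 of 15 had lower log2 means in ICM, where 6104 of all 9436 genes tested did. ICM 25 was the lowest library for 14 of 15, against 50.9% of all genes tested. The median of that list was between -0.01 and 0 without ICM 25.

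By limma with all libraries, the genes nearest to a call were ESRP2 and THOC6. The authors' deposited table passed both, ESRP2 as lower in ICM (DESeq adjusted p = 0.0012) and THOC6 as higher (DESeq adjusted p = 7.5e-06). It also passed GEMIN4, CWC25 and SNRNP35 as lower in ICM (DESeq adjusted p = 0.0025, 0.040 and 0.042). RBMS1 and SUGP2 passed there as higher (DESeq adjusted p = 0.028 and 0.032), where 16.6% of its rows passed. ESRP2, an epithelial splicing regulator, stood at 5.54, 6.29 and 5.3 RPKM in ICM 15, 22 and 25, against 11.1, 13.5 and 15.4 RPKM in TE 16, 23 and 24, with no overlap (log2 difference -1.09 with SE 0.24, limma adjusted p = 0.059). THOC6, of the THO complex that couples transcription to export, stood at 9.93, 11.5 and 18.1 RPKM in ICM 15, 22 and 25, against 3.7, 4.25 and 5.94 RPKM in TE 16, 23 and 24, with no overlap and ICM 25 the highest (log2 difference 1.31 with SE 0.29, limma adjusted p = 0.068). RBMS1, an RNA-binding protein first described by its binding near MYC, stood at 14.3, 13.5 and 8.84 RPKM in ICM 15, 22 and 25, against 5.92, 6.23 and 8.57 RPKM in TE 16, 23 and 24 (log2 difference 0.73 with SE 0.27, limma adjusted p = 0.22). SNRNP35, of the minor U11/U12 spliceosome, stood at 0.448 ± 0.371 RPKM in ICM, against 1.73 ± 0.489 RPKM in TE and CWC25, which acts at the first catalytic step, at 3.82 ± 1.4 RPKM in ICM, against 7.49 ± 0.15 RPKM in TE (SD, n = 3 each, limma's adjusted p = 0.14 and 0.17). GEMIN4 of the SMN complex stood at 3.35 ± 1.83 RPKM in ICM, against 7.47 ± 0.967 RPKM in TE and the export receptor XPO1 at 9.93 ± 4.17 RPKM in ICM, against 13.9 ± 0.89 RPKM in TE (SD, n = 3 each, limma's adjusted p = 0.18 and 0.47). The phosphatase PPM1G was at 24.3 ± 4.22 RPKM in ICM, against 33.7 ± 3.7 RPKM in TE, the phosphatase inhibitor PPP1R8 at 5.95 ± 1.45 RPKM in ICM, against 4.01 ± 0.0734 RPKM in TE and the speckle protein SRRM2 at 31.9 ± 13.9 RPKM in ICM, against 48.4 ± 5.21 RPKM in TE (SD, n = 3 each, limma's adjusted p = 0.37, 0.40 and 0.37).

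Without ICM 25, 8 of the 155 were called (5.16%), 5 higher in ICM and 3 lower, where 11.5% of all genes were called, so the share of these lists was below that of all genes. Beside ESRP2, SNRNP35 and CWC25, which were lower, and THOC6 and RBMS1, which were higher, these were CLK1, NCBP1 and SUGP2. CLK1, a kinase that phosphorylates SR proteins, stood at 20.9, 21.4 and 8.71 RPKM in ICM 15, 22 and 25, against 9.28, 10.6 and 12 RPKM in TE 16, 23 and 24. ICM 15 and 22 were about level with each other and ICM 25 was below TE (log2 difference 0.94, limma adjusted p = 0.018). NCBP1, the large cap-binding subunit, stood at 50.8, 39.6 and 16.1 RPKM in ICM 15, 22 and 25, against 26.3, 24.9 and 26 RPKM in TE 16, 23 and 24 (log2 difference 0.78, limma adjusted p = 0.03). SUGP2, a nuclear protein with SURP domains, stood at 12.1, 13.6 and 2.39 RPKM in ICM 15, 22 and 25, against 5.76, 5.04 and 6.08 RPKM in TE 16, 23 and 24 (log2 difference 1.06, limma adjusted p = 0.013). In all 3, ICM 25 lay on the other side of TE from ICM 15 and 22.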

How the data were processed

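RNA of 3 ICM and 3 TE libraries came off Picopure columns, and its Ovation-amplified cDNA was made into TruSeq DNA libraries, per the labels' protocols. The authors deposited 1 table, with RPKM per library per the file headers. It also holds the authors' mean signal of normalized counts (baseMean), fold (ratio) of ICM over TE, its log2, and DESeq p-values. The authors named FastQC and DESeq, per the submitters' processing notes. For aligner, counter, build and annotation, names were not given in the sources used here. A fold of the authors' deposited table is a ratio of means, so it is larger for low genes than a log2(RPKM + 1) difference.

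RPKM and baseMean together gave back the reads: 100% of values of up to 1000 reads were whole within 0.001 reads. Amplified cDNA without molecular identifiers is not independent molecules, so floors (3 reads) cover counting error only. Limma 3.58.1 (R 4.3.3; eBayes with trend, two-sided) was run on log2(RPKM + 1), for genes reaching 1 RPKM in 3 or more libraries, at an adjusted p of 0.05, on the ICM minus TE difference, without pairing, and the step was tested on simulated data. Intervals are 95% intervals of single differences, not adjusted for many genes. A symbol in the NCBI table of TB-T2T was found for 113 of the 114 genes. Named were, in each class, the 3 genes with the smallest p and the 2 with the highest mean, all tissue-biased regulators, those below the filter and, in each other list, the 2 with the smallest p. A gene that this rule names is not reported here. Other genes named with a value were chosen after it was seen. The genes, lists and this rule were chosen with earlier results of these data known. Strand of counting was not stated. Alternatives were another pseudocount, filters, scalings, library weights, voom on the reads and each library left out.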

Additional observations from a re-analysis of the deposited data

How the results depend on the processing

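Of the results, that 0 splicing genes were called was unchanged under another pseudocount (0.1), no filter, a filter of 5 RPKM, median of ratios and quantile normalization. It was also unchanged with library weights, voom and leaving out ICM 15, ICM 22 or any TE library. Those fits with a library left out called at most 76 of all genes. The smaller pseudocount, no filter and 5 RPKM called 112, 114 and 81. With so few calls over all genes, the 0 of these fits shows little about the splicing genes. Without ICM 25 the count of splicing genes called was 3 higher in ICM and 1 higher in TE (range over libraries left out 0 to 3 and 0 to 1), and with voom without ICM 25 it was 4 and 3. Of other splicing genes 4 were called with library weights, 0 to 8 with a library left out (8 without ICM 25) and 8 with voom without ICM 25. Over all genes the count of 176 was 112 at the smaller pseudocount, 114 when unfiltered, 81 at 5 RPKM, 760 with library weights, 0 to 1086 with a library left out (18, 76 and 1086 without ICM 15, 22 and 25, and 0, 1 and 1 without TE 16, 23 and 24) and 1335 with voom without ICM 25. The causes were not tested. Of 513 values of named genes, 450 kept direction and call, 11 passed only under an alternative and 52 changed sign, all of genes never called. The log2 differences with changed sign, under median of ratios, quantile normalization, library weights, voom or voom without ICM 25, were as follows, with the range over libraries left out where this crossed 0. CELF1 had 0.14, 0.11, 0.090, 0.15, 0.16 and -0.13 to 0.13. HNRNPA2B1 had 0.18, 0.051, 0.17, 0.18, 0.17 and -0.22 to 0.14. HNRNPD had 0.046 (median of ratios), 0.26 (library weights), 0.053 (voom), 0.36 (voom without ICM 25) and -0.46 to 0.34. LSM14A had 0.11, 0.069, 0.022, 0.11, 0.092 and -0.19 to 0.077. RBM3 had 0.19, 0.080, 0.17, 0.19, 0.17 and -0.21 to 0.21. SF3B1 had -0.036 to 0.17. SNRPA1 had 0.050 (voom without ICM 25) and -0.78 to 0.019. SNRPD1 had 0.15, 0.13, 0.50, 0.19, 0.54 and -0.48 to 0.51. SNRPF had -0.38 to 0.71. SRSF3 had 0.016 (library weights), 0.045 (voom without ICM 25) and -0.61 to 0.025. SRSF7 had 0.0075 (library weights) and 0.015 (voom without ICM 25). No paired analysis was possible because no library number occurs in both groups. Few reads limit SNRPE, LSM7, LSM10, LSM11, RBM11 and RBM38, with at most 51 reads in a library, and why they were few was not tested.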
